A study of Caenorhabditis elegans with 4 samples.

Results

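Isolated RNA polymerase II (Pol II) regions are short called regions that stand far from any other called region on their chromosome. The members were chosen by position and width in a ChIP-seq region list of late *Caenorhabditis elegans* embryos: under 2000 bp wide, with at least 10000 bp to the previous and to the next region. Of 5364 listed regions, 686 met the rule. The first and last region of each of the 6 chromosomes, 12 regions in all, were left out because they have only 1 neighbour, and 4 of these would have passed on the gap they have. Position, width and the gaps chose the members. The widths, gaps and chromosome counts below are therefore descriptions, and the q-values come from the same ChIP against input contrast, so no test was made on any of them.

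The chromatin came from embryos of the wild-type strain N2, the standard laboratory strain, with hermaphrodite given as the sex and wild type as the genotype. All libraries shared this strain, a temperature of 20 °C, a stage of 4.5 hours after the early embryo and fixation in 2% formaldehyde. There were 2 Pol II ChIP libraries and 2 input libraries, numbered 1 and 2 in each group. The labels name the mouse monoclonal antibody 8WG16, which recognises the heptapeptide repeat of the largest Pol II subunit. They do not say whether the replicates were separate cultures. Whole embryos were used, so each region sums over all cell types present. The authors deposited 1 combined list with 1 q-value per region, so no value per library, replicate spread or depth was at hand.

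Pol II transcribes the protein-coding genes of eukaryotes, and ama-1 encodes its largest subunit in this worm. The worm genome is compact, with short spaces between genes and many genes arranged in operons, in which several genes are transcribed from a shared promoter. On the autosomes the centres are known for conserved, broadly expressed genes and low recombination, and the arms for repeats and younger gene families. In hermaphrodites both X chromosomes are partly repressed in somatic cells by dosage compensation. As a scale for the gap limit, the WBcel235 gene table holds 19971 protein-coding genes on the 6 chromosomes, or 199.9 per Mb spanned by the list. WBcel235 is another genome build than the list's WS180, so no region was assigned to a gene and no sequence was read.

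Isolation was uncommon in this list. Of the 5352 regions with neighbours on both sides, 12.8% met the rule. The number depends on the limit chosen, with 1078 regions at a minimum gap of 5000 bp and 378 at 20000 bp. Among the 4980 of these under 2000 bp, 2323 had both neighbours closer than 10000 bp. A further 980 were far from the previous region only and 991 from the next only. The median gap between neighbours was 2946.5 bp, and 1798 of 5358 gaps (33.6%) reached 10000 bp. The isolated regions covered 291 kb in all, which was 7.43% of the bases in the list.

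Isolated regions were spread over the chromosomes more evenly than the list itself. Chromosome III held 135 of them, X 117, V 115, II 109, and I and IV 105 each. Per Mb of span this was 9.81 on III, 7.14 on II, 7.02 on I, 6.65 on X, 6.01 on IV and 5.52 on V. All listed regions ran from 92.5 per Mb on I to 19.7 per Mb on X. The highest chromosome was thus 1.78 times the lowest for isolated regions and 4.71 times for all regions. The rule works on gaps, so the share isolated is not independent of how dense the list is on a chromosome. It did not follow density throughout. On III, with 72.3 listed regions per Mb, 13.6% were isolated, against 11.2% on II with 63.4 and 12.3% on IV with 49.0. The part of density in these shares was not tested.

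**Figure D1:**
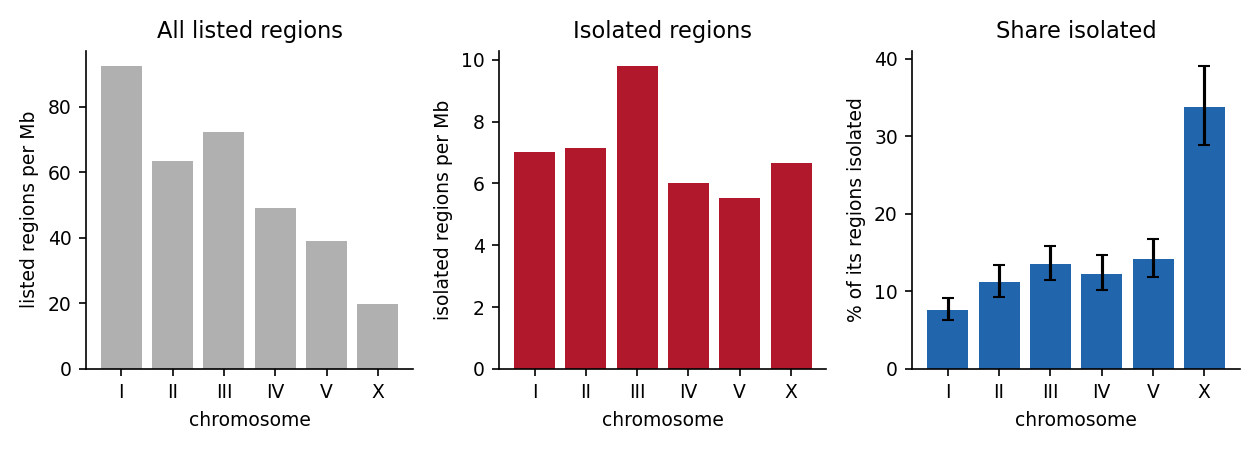
Listed regions per Mb of span (left), isolated regions per Mb (middle) and the percentage of each chromosome's regions that were isolated (right), with exact 95% binomial intervals as error bars on the right. Listed regions fall from 92.5 per Mb on I to 19.7 on X, while isolated regions stay between 5.52 and 9.81 per Mb, and X has the highest share isolated at 33.8%.

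On X, isolation was common. There 117 of 346 regions were isolated, or 33.8% (exact 95% interval 28.8 to 39.1%, for counting error only), against 569 of 5018 on the autosomes, or 11.3% (10.5 to 12.2%). Single autosomes ranged from 7.58% on I to 14.2% on V. X therefore supplied 17.1% of the isolated regions (14.3 to 20.1%) but 6.45% of the list, and 17.6% of the span. Where only q-values of 0.001 or less entered before the rule was applied, X supplied 72 of 642, or 11.2%. The share of X in that shorter list of 3515 regions was not counted, so 11.2% cannot be set against 6.45%. Chromosome I went the other way, with 25.8% of the list and 15.3% of the isolated regions. Per 1000 protein-coding genes of the WBcel235 table, III held 51.1 isolated regions, X 42.9, I 36.5, IV 32.0, II 31.6 and V 23.0.

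Taken over all autosomes, isolated regions lay in centres and arms in the same proportions as the rest of the list. With the centre taken as the middle 33.3% of a chromosome's span, 215 of 569 autosomal isolated regions had their midpoint there, or 37.8% (exact 95% interval 33.8 to 41.9%). For all autosomal regions the figure was 37.4%. The left arms held 184 isolated regions and the right arms 170. On X the centre held 38 of 117, or 32.5%, against 29.8% of all X regions.

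Single chromosomes differed from this average in both directions. Only on IV did the exact 95% interval leave out the share of all its listed regions. On IV, 52 of 105 isolated regions were in the centre, or 49.5% (exact 95% interval 39.6 to 59.5%), against 36.7% of all regions there. On V it was 54 of 115, or 47.0% (37.6 to 56.5%), against 40.3%. On I the centre held 29 of 105, or 27.6% (19.3 to 37.2%), against 37.1% of its regions. In density, the centres of IV and V carried 8.93 and 7.77 isolated regions per Mb and their arms 4.55 and 4.39. The centre of I carried 5.81 and its arms 7.62. Chromosomes II and III had 32.1% (23.5 to 41.7%) and 33.3% (25.5 to 42.0%) of isolated regions in the centre. These were also below the 37.4% and 36.1% of all their regions, but the intervals held those values. On II the left arm stood out, since 16% of its 250 regions were isolated against 9.67% in the centre and 9.52% in the right arm.

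**Figure D2:**
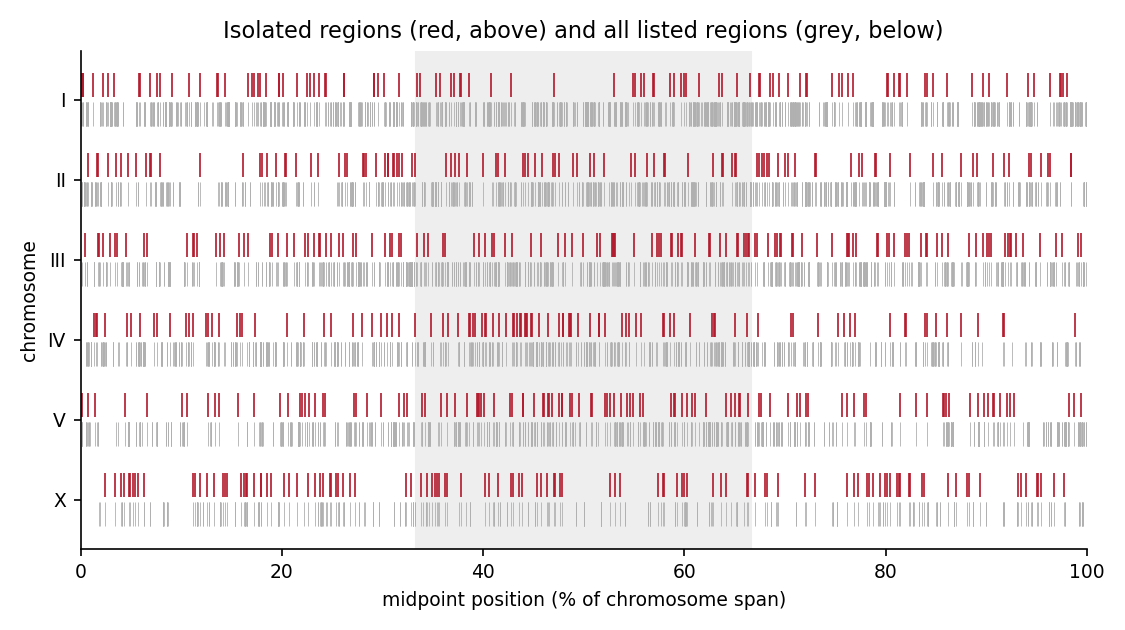
Midpoint of each region as a percentage of its chromosome's span, for isolated regions (red ticks) and all listed regions (grey ticks), with the middle 33.3% shaded. Isolated regions occur along the whole of each chromosome. On IV and V they are denser in the shaded part than in the arms, and on I they are thinner there.

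The empty stretches around isolated regions were often much longer than the rule required. The nearer neighbour lay at a median of 21647.5 bp (interquartile range 14353 to 34562.5 bp) and the farther one at 56060 bp (33171 to 89053 bp). The nearer gap reached 20000 bp for 378 regions (55.1%), 50000 bp for 91 (13.3%) and 100000 bp for 18 (2.62%). Gaps were usually unequal, and the farther was a median of 2.08 times the nearer. The nearer gap lay before the region in 340 cases and after it in 346, so neither side was favoured. The longest gap beside any isolated region was 449600 bp.

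X and V held most of the regions with long empty stretches on both sides. Median nearer gaps were 34537 bp on X and 24778 bp on V, against 17348 bp on I, 18935 bp on III, 20962 bp on IV and 22000 bp on II. Of the 91 regions with at least 50000 bp on each side, 35 were on X and 29 on V. X thus made up 38.5% of this set, 18.1% of the regions with nearer gaps of 20000 to below 50000 bp and 9.74% of those below that. The centre share went from 42.5% in the shortest of these classes to 32.8% and 30.8% in the longer ones. Widths and q-values moved less over these classes, with median widths of 319, 335 and 391 bp and q-values of 0.001 or less in 54.9, 57.8 and 54.9% of regions.

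**Figure D3:**
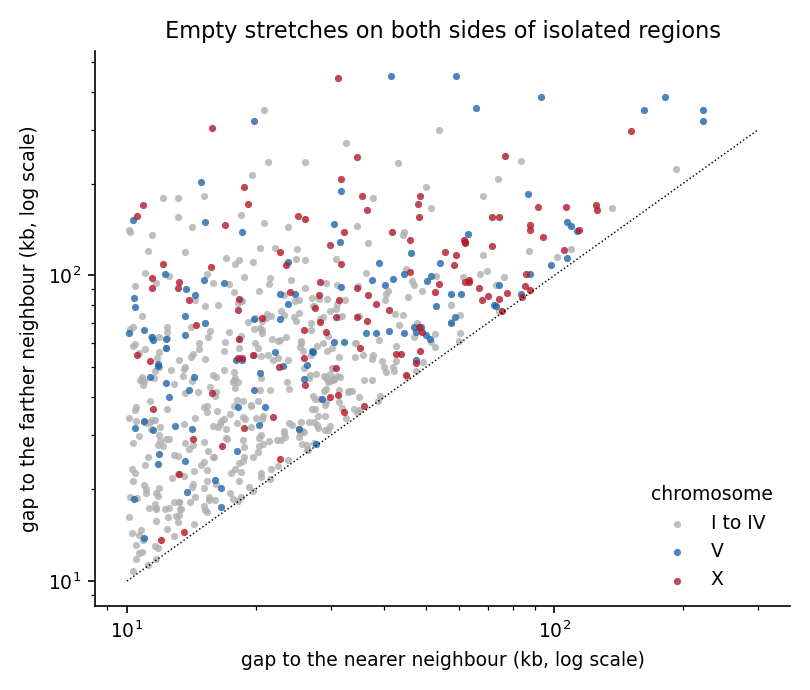
Gap to the nearer and to the farther neighbour of each isolated region in kb, both on log scales, coloured by chromosome, with equal gaps on the dotted line. X and V supply 64 of the 91 regions with a nearer gap of at least 50 kb.

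The most isolated regions came mostly from V and X. Of the 12 with the largest nearer gap, 6 were on V, 4 on X, 1 on II and 1 on IV. A pair of neighbours on the right arm of V led, and each was the other's nearest region, 222865 bp away. The left of them spanned 499 bp (V:17314967-17315465, all coordinates on WS180) with a q-value of 3.45e-05 and an empty 348986 bp before it. The right one spanned 413 bp (V:17538331-17538743), with a q-value of 0.00149 and 319817 bp after it. Next came a 433 bp region on the right arm of IV (15274103 to 15274535, q-value 0.0012), with 192835 bp to its nearer neighbour. The smallest q-value among the 12, 4.35e-07, belonged to a 1550 bp region on the left arm of X (3787362 to 3788911), with 114308 bp to its nearer neighbour.

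Away from X and V, 2 of the 12 stood on chromosomes with fuller lists. On II a 413 bp region in the centre (6113979 to 6114391, q-value 0.00288) had 165847 bp before it and 136395 bp after it. None of these 12 was among the 10 isolated regions with the smallest q-values. With only 10 of 686 in that set, a lack of overlap says little.

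Many isolated regions followed each other without another region between them, at about the rate the rule itself gives. Of their 1372 neighbours, 550 (40.1%) were isolated regions themselves. A neighbour already has 1 gap of at least 10000 bp, and of all 3596 region sides that face such a gap, 38.2% belonged to isolated regions. Of the 686, 443 stood in a run of at least 2. Runs of 4 or more numbered 22 and held 105 regions, of which X had 8 runs with 42 regions. The longest run was on the right arm of X, where 8 isolated regions in a row occupied 439 kb (14063784 to 14502330) and covered 4465 bp of it. Within that run, widths went from 63 to 1572 bp and q-values from 1.89e-51 to 0.00847, and 7 of the 8 were at 0.001 or less. Another run on X, near its left end (766855 to 1104173), held 7 regions of 192 to 1542 bp, of which 0 were at 0.001 or less. Among runs of 4 or more, the longest by distance was on V, with 6 regions over 956 kb (16965573 to 17921878), including the pair named above.

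Beyond the 10000 bp that the rule empties, the surroundings of isolated regions were close to those of other regions on the same chromosome. Counting only regions at gaps of 10000 to 50000 bp, isolated regions had a median of 3 others (interquartile range 1 to 6, highest 25). Other regions under 2000 bp had a median of 5 (2 to 8). Having 0 was more common among isolated regions, at 91 of 686 against 332 of 4306, and these counts were not split by chromosome. By chromosome, the medians for isolated and other regions were 6 and 7 on I, 4 and 5 on II, 5 and 5 on III, 4 and 3 on IV, 2 and 3 on V and 1 and 1 on X, with overlapping interquartile ranges on each. The neighbours themselves had a median width of 411.5 bp against 430 bp for the list. Of the 1372, 118 (8.60%) were 2000 bp or wider, against 6.94% of the list. However, 550 of the neighbours were isolated regions, which the rule keeps under 2000 bp, so all 118 were among the rest. The pooled values therefore cannot show whether neighbours were of ordinary size, and the rest were not measured apart.

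Isolated regions were narrow. Their median width was 336.5 bp (interquartile range 191 to 536 bp, longest 1982 bp), against 407.5 bp (205 to 714 bp) for the 4306 other regions under the same limit. The share of a width class that was isolated was lower in wider classes. Under 100 bp, 16.9% were isolated, and from 100 to below 500 bp the share was 15.9%. It was 11.1% in the class from 500 to below 1000 bp, and 8.35% from there to below 2000 bp. Wider than the limit, 49 more regions had both gaps of at least 10000 bp, with a median width of 3044 bp, and 42 of these were on IV, V and X.

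X carried the widest isolated regions and I the narrowest. Median widths were 430 bp on X, 373 bp on V, 336 bp on IV, 319 bp on II, 274 bp on III and 267 bp on I. The other regions under 2000 bp had the same order, with 603 bp on X, 513 bp on V, 436 bp on IV, 377 bp on II, 371.5 bp on III and 355 bp on I. On every chromosome the isolated regions were the narrower set by median. The upper quartile of isolated X regions was 826 bp, against 518 bp for autosomal ones.

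The extremes of width were unlike each other in q-value. The widest isolated region spanned 1982 bp on the left arm of X (1996242 to 1998223) and had a q-value of 5.80e-37. The next spanned 1921 bp near the right end of II (14708930 to 14710850), with a q-value of only 0.00199. A 1864 bp region on the left arm of III (2171747 to 2173610) had 4.48e-19. At the other end, 26 isolated regions were 10 bp or less, of 98 such regions in the list, and 4 of the 26 reached a q-value of 0.001. The number among all 98 was not counted, and of all listed regions under 100 bp 27.8% reached it. The narrowest, at 1 bp, lay on the left arms of I (position 1360179, q-value 0.000577) and IV (position 1946271, q-value 0.00589).

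The limits of the rule cut through a continuous range of gaps and widths. Just inside the gap limit stood regions of 232 bp on IV, 875 bp on V and 468 bp on IV, with nearer gaps of 10095, 10097 and 10129 bp and q-values of 0.000557, 0.00109 and 0.000435. Just outside stood regions of 624 bp on III, 377 bp on II and 61 bp on IV, with 9987, 9974 and 9937 bp and q-values of 0.00321, 0.000329 and 0.00412. Just above the width limit, regions of 2012 bp on IV, 2045 bp on V and 2064 bp on IV had both gaps over 10000 bp. Their q-values were 5.72e-10, 2.41e-17 and 9.01e-185.

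The only value the authors gave per region is the q-value, a p-value corrected for the many regions tested. It moves with enrichment and with how many reads a region collects. Isolated regions had a median q-value of 0.000615 (the list's limit was 0.01), against 0.000201 for other regions under 2000 bp. In 385 of 686, or 56.1% (exact 95% interval 52.3 to 59.9%), the q-value was 0.001 or less. This share was 64.2% of other regions under 2000 bp and 65.5% of the whole list. Values below 1e-10 were held by 49 isolated regions (7.14%), against 12.9% of other regions under 2000 bp and 17.1% of the list, which includes the wide regions. Values above 0.005 were held by 115 (16.8%) against 13.6% of the list, again with the wide regions included.

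Narrow regions have larger q-values in this list, so both sets are also given within width classes. From 100 to below 500 bp, where 399 isolated regions fell, 54.9% reached 0.001, as did 54.7% of the other regions and 54.8% of the class. From 500 to below 1000 bp it was 75.7% of 144 against 79.8% of the others and 79.3% of the class, with overlapping exact intervals. Under 100 bp it was 15.9% of 88 (exact 95% interval 8.98 to 25.2%) against 30.3% (26.0 to 34.8%) and 27.8% of the class. From 1000 to below 2000 bp it was 78.2% of 55 (65.0 to 88.2%) against 92.2% (89.8 to 94.2%) and 91% of the class. The isolated set was thus lower at both ends of the width range and level with the others in the class that held most of it. With X left out, the difference remained under 100 bp, at 16.2% of 80 (8.95 to 26.2%) against 30.4% of 427 (26.1 to 35.1%). From 1000 to below 2000 bp it shrank to 88.2% of 34 (72.5 to 96.7%) against 93.5% of 554 (91.1 to 95.4%), with overlapping intervals.

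**Figure D4:**
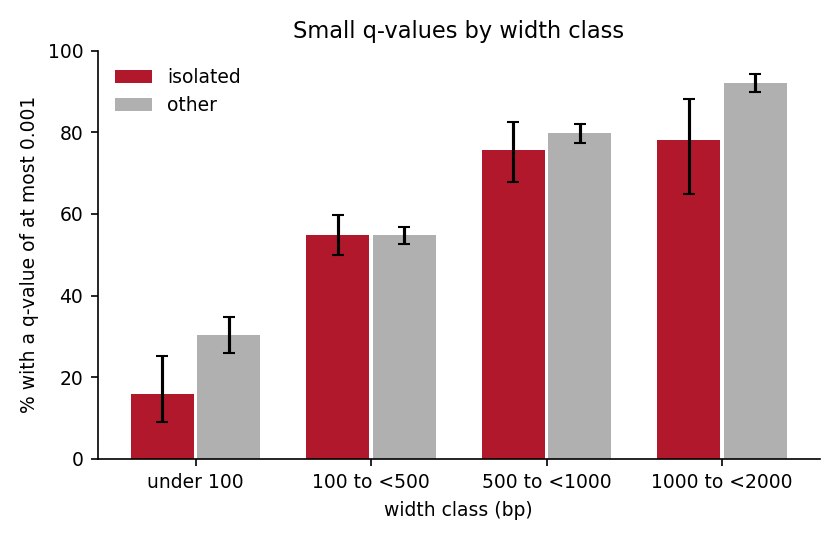
Percentage of regions with a q-value of at most 0.001 in 4 width classes, for isolated regions (red) and other listed regions (grey), with exact 95% binomial intervals for counting error only. The bars are level from 100 to below 500 bp (54.9 and 54.7%) and apart under 100 bp (15.9 and 30.3%) and from 1000 to below 2000 bp (78.2 and 92.2%).

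Chromosome I had the smallest q-values among isolated regions and X the largest. The median was 0.000164 on I, 0.000407 on II, 0.00057 on V, 0.000585 on III, 0.000684 on IV and 0.00132 on X. The share at 0.001 or less was 65.7% on I and 47.0% on X, and 53.3 to 57.8% on the other chromosomes. X had the larger values although its isolated regions were wider. From 100 to below 500 bp, 23 of 60 X regions (38.3%, exact 95% interval 26.1 to 51.8%) reached 0.001, against 196 of 339 autosomal ones (57.8%, 52.4 to 63.1%). From 1000 to below 2000 bp it was 13 of 21 on X (61.9%, 38.4 to 81.9%) against 30 of 34 (88.2%, 72.5 to 96.7%). Outside isolation X was also the lowest, with 54.8% of its other regions under 2000 bp at 0.001 against 64.6% on the autosomes. Within X from 100 to below 500 bp, isolated regions were at 38.3% and the 63 others at 28.6% (17.9 to 41.3%). The remaining classes on X went the other way. Under 100 bp it was 12.5% of 8 isolated regions against 16.7% of 6 others. From 500 to below 1000 bp it was 64.3% of 28 against 67.2% of 58. From 1000 to below 2000 bp it was 61.9% of 21 against 78% of 50. The intervals overlapped in every class.

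Few isolated regions were among the strongest calls of the whole list, but the rule leaves out the 372 regions of 2000 bp or wider. Of these, the 49 with both gaps of at least 10000 bp had a median q-value of 2.69e-44. A low count thus follows in part from the width limit, and the places taken by other regions under 2000 bp were not counted. The first 100 places in the list, which the smallest q-values take, included 3 isolated regions, on II and III, whereas isolated regions are 12.8% of the list. A 987 bp region in the centre of II (II:5543361-5544347) had the smallest, 2.38e-178, with 69088 bp before it and 43380 bp after it. An 874 bp region on the right arm of III (III:12250173-12251046) followed with 6.41e-125, and a 1312 bp region on the right arm of II (II:12943927-12945238) with 2.32e-100. The latter had 138698 bp before it and 44433 bp after it.

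A wide step separated these from the rest. The fourth was a 1568 bp region on III (9079726 to 9081293) at 3.06e-52, and the fifth a 1572 bp region on X (14489856 to 14491427) at 1.89e-51, which belongs to the run of 8. A 668 bp region on the right arm of I (10516672 to 10517339) had 3.78e-50, at less than the width of its neighbours in this ranking. The remaining 4 of the first 10 lay on X, III, II and X, with q-values from 6.73e-44 to 5.80e-37. Chromosomes IV and V supplied 0 of these 10.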

How the data were processed

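Formaldehyde (2%) fixed the embryos and Tris (100 mM) stopped the reaction, per the labels' protocols, and sonicated, immunoprecipitated DNA was gel-selected and made into Illumina libraries. The shared protocol speaks of serum against GFP, whereas the sample labels name the Pol II antibody, and the sample labels were followed. The authors deposited 1 list of regions with a q-value (a corrected p-value) for each. Per the file headers, it is on WormBase WS180, and each row names PeakSeq. The aligner, caller settings, depth and joining of replicates are not given in the sources used here.

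Gaps were counted as the bases between neighbouring regions, and spans ran to the end of each chromosome's last region. Groups of libraries could not be compared, no test was run, and intervals are exact (Clopper-Pearson) 95% binomial intervals. They cover counting error only and treat regions as independent, which neighbouring regions are not. Regions named are those with the 12 largest nearer gaps, the 10 smallest q-values, the 3 widest and narrowest, those nearest the limits, and the longest run. Other runs were named after their values were seen. The members and these rules were chosen with earlier results of these data known. The isolation rule and the matching of counts were tested on simulated data. Alternatives varied the gap, width and q-value limits, merging, the centre and the chromosomes. Scripts ran in Python 3.11.15 with scipy 1.17.1, pandas 2.3.3, numpy 2.4.6 and, for the plots, matplotlib 3.10.9.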

Additional observations from a re-analysis of the deposited data

How the results depend on the processing

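The number of isolated regions, 686, went to 1078 with a minimum gap of 5000 bp and to 378 with 20000 bp, and lay between 631 and 768 under the 6 other alternatives. As a share of the list, 12.8% became 20.1% and 7.05% with those gaps, 11.8% for widths under 1000 bp, 17.5 and 21.3% after merging neighbours closer than 500 and 1000 bp, and 18.3% when only q-values of at most 0.001 were kept. The median width, 336.5 bp, became 314 bp for widths under 1000 bp, 361.5 and 379 bp after those merges and 432.5 bp at the stricter q-value. The share on X, 17.1%, became 12.7% and 23.0% with gaps of 5000 and 20000 bp. At the stricter q-value it was 11.2%, of a shorter list in which the share of X was not counted. The share on X rose to 20.1, 20.3, 21.2, 20.1 and 20.5% without chromosomes I, II, III, IV and V, where fewer autosomes are counted. The autosomal centre share, 37.8%, became 32.3% with gaps of 20000 bp and 54.5% when the centre was widened to the middle 50%. Other alternatives left it between 35.1 and 40.9%. The share at a q-value of 0.001 stayed within 54.2 to 59.1%. The causes were not tested. No paired analysis was possible because replicates were already joined in the deposited list, so no replicate could be left out either. With depths unknown, regions under the threshold cannot be told from empty sequence.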

Other observations

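The q-values can be traced to whole counts. At 2064 places the next q-value in the list was smaller, and treating the p-values there as ties gave ranks within 0.001 of a whole number at 1889. At 1887 of those the rank exceeded the region's place by 6. Taking that rank and 19306 candidates in all, every one of the 5364 p-values matched a single pair of integers. The match was to the binomial upper tail at probability 0.5, with differences of at most 8.3e-12 in natural log units. PeakSeq is known to compare ChIP tags with scaled input tags by such a test, but the labels do not say that these pairs are those tags. They are given here as the larger and the smaller count of a region.

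All 686 isolated regions had such a pair. The larger count had a median of 81.5 (22 to 955) and the smaller of 37 (2 to 239), and the median ratio was 2.26 (interquartile range 1.90 to 2.80), against 2.23 for other regions under 2000 bp. The list's threshold admits small counts only at high ratios, so ratios are compared within width classes. They were 3 and 3.08 under 100 bp for isolated and other regions, 2.24 and 2.25 from 100 to below 500 bp, 2.05 and 2.03 from 500 to below 1000 bp, and 1.81 and 1.96 from 1000 to below 2000 bp.

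Since the q-values follow from these counts, the counts below are no second measure of the regions named for their q-value. The 987 bp region in the centre of II had counts of 955 and 93, a ratio of 10.3. The 874 bp region on III had 716 and 82 (8.73), and the 1312 bp region on II had 783 and 153 (5.12). The 668 bp region on I, with 377 and 70, reached 5.39. By contrast, the 1921 bp region on II had 319 and 239, a ratio of 1.33. The most isolated pair on V had 96 and 43, and 89 and 48.

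The 26 isolated regions of 10 bp or less rested on larger counts of 22 to 34, with a median of 29. The 1 bp regions had counts of 28 and 6 on I and of 26 and 8 on IV. The highest ratio of any isolated region, 14.5, came from a 21 bp region on II (10738410 to 10738430) with 29 and 2, and was named after its value was seen.

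With all widths under 2000 bp pooled, ratios were lower on X with or without isolation. The median on X and the autosomes was 1.89 and 2.31 for isolated regions and 1.85 and 2.25 for others. The others were wider on X (median 603 against 401 bp), and their ratios by chromosome were not split by width class. For isolated regions by class, the medians were 1.99 and 2.28 from 100 to below 500 bp, 1.75 and 2.16 from 500 to below 1000 bp, and 1.51 and 1.89 from 1000 to below 2000 bp. Per kb of region, the smaller count was higher on X in these 3 classes, with medians of 121, 116 and 121 against 112, 103 and 102. The larger count was lower, with 254, 197 and 187 against 257, 210 and 199. Under 100 bp, with 8 isolated regions on X, the ratio was 3 on X and 2.96 on the autosomes. The smaller count per kb there was 214 on X against 288. How the smaller count was scaled is unknown, and its part in the ratio was not tested.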
